A study of Homo sapiens with 7 samples.

Results

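The 10 genes described here are SRF, which encodes serum response factor, and 9 genes of the actin cytoskeleton that are known as its targets: ACTG1, VCL, TAGLN, TAGLN2, TPM1, TPM4, MYL9, FHL2 and FLNA. They were chosen by name, with earlier results of these data known, and make up 10 of the 19978 genes in the table. All of them had a row, and all entered the test. The RNA came from HEK-293, an established human embryonic kidney cell line. The cells were grown in DMEM with serum and then kept for 48 h in DMEM under the conditions below. Control cells (2 samples) were in medium of pH 7.4 with the vehicle DMSO. The SRPIN340 group (2 samples) was in medium of pH 7.4 with DMSO and SRPIN340, an inhibitor of SR protein kinases, at 10 µM. The acidosis group (3 samples) was in medium acidified to pH 6.6 with DMSO. The study asked how acidosis and kinase inhibition affect transcripts in the same line. The labels number the samples of a group as repeats, so p-values measure the spread between these few cultures.

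SRF is a transcription factor that binds a short DNA element called the CArG box. It works with cofactors of 2 kinds. The myocardin-related factors MRTFA and MRTFB are held back by free actin monomer and released when actin polymerises, and the ternary complex factors ELK1, ELK3 and ELK4 respond to growth factor signals. Many of the targets encode actin itself and the proteins that bundle, cross-link, anchor or pull on actin filaments, so the pathway ties the supply of cytoskeletal proteins to the state of the filaments. In smooth muscle the same factor drives contractile genes such as TAGLN and MYL9.

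CArG boxes were found in the RefSeq promoters (GRCh38.p14, 250 bases before to 50 bases after a start) of 5 of the 8 genes with an entry, which leaves out TAGLN and MYL9. The stretches below are shown because they are the elements through which SRF is known to act. Capitals mark the CArG box, which reads as a CArG box on both strands, and the text runs 5′ to 3′ along the gene's strand.
SRF, chr6:43171214-43171268, plus strand: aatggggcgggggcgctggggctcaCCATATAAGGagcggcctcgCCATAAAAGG
ACTG1, chr17:81512859-81512918, minus strand: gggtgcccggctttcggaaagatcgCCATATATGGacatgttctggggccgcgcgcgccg
FHL2, chr2:105399076-105399135, minus strand: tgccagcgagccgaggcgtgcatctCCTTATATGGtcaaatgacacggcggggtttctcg
FHL2, chr2:105438580-105438639, minus strand: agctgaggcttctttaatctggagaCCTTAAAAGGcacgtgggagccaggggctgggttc
FLNA, chrX:154374694-154374753, minus strand: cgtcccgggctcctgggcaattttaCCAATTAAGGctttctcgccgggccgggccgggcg
TPM4, chr19:16067340-16067399, plus strand: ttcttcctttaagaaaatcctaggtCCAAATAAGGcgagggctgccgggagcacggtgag

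SRF had 2 boxes, which start 30 and 10 bases before its transcription start. The box of ACTG1 and that of FLNA each start 94 bases before theirs, and the box of TPM4 starts 173 bases before. The boxes of FHL2 start 59 and 101 bases before 2 different starts. The windows of VCL, TAGLN2 and TPM1 held no match, which says only that these letters are not in these windows. Of all 35116 RefSeq promoters, 454 (1.29%) held a CArG box. Among genes tested with a promoter entry, the share was 190 of 11830 (1.61%), against 32 of 1709 (1.87%) of those called higher in acidosis and 34 of 2242 (1.52%) of those called lower. The 190 genes with a box had a median log2 fold change of 0.098 in acidosis, and 16.8% of them were called higher and 17.9% lower. A match is a description of the letters, and binding was not measured.

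The depth was 21788457 to 24110460 counts per library at pH 7.4, and 21370143, 13615816 and 14870301 counts in acidosis. The share of the 100 most abundant genes in all counts was 15.15% to 15.37% at pH 7.4 and 24.06% to 24.81% in acidosis. Levels are given in CPM, a gene's count relative to the library total after TMM scaling, which sets most genes level between samples, and the direction of small changes depends on that choice. The 7 genes fixed as markers of HEK-293 were all detected in every sample. Their summed level was 1592 to 1654 CPM at pH 7.4 and 3727 to 3744 CPM in acidosis, with VIM and NEFM called higher and PAX2 called lower. Most of the sum was VIM, at a mean of 867 CPM in control and 2714 CPM in acidosis. The sum thus does not show that the markers rose as a set. In bulk RNA, fewer cells of a type and less RNA per cell cannot be told apart.

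In acidosis, 8 of the 10 genes were called higher than in control, where a call needed a log2 fold change beyond 1 in either direction and a Benjamini-Hochberg adjusted p under 0.05 in edgeR's quasi-likelihood test. The rise ran from 2.26-fold for MYL9 to 13.3-fold for TAGLN. Of all 14863 genes tested, 33.5% were called in this comparison, 14.4% higher and 19.1% lower, so a call was common. Without the limit on fold, 9 members passed the test as higher and 0 as lower, beside 66.7% of all genes that passed, 32.5% as higher and 34.2% as lower. In 9 members every acidosis sample lay above both control samples, a pattern that 37% of all genes showed, and 76.5% of all genes had groups that did not overlap in either direction. The median log2 fold change was 1.71 over the 10 genes and -0.052 over all genes tested. VCL passed the test below the fold limit, and TPM1 did not pass.

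**Figure D1:**
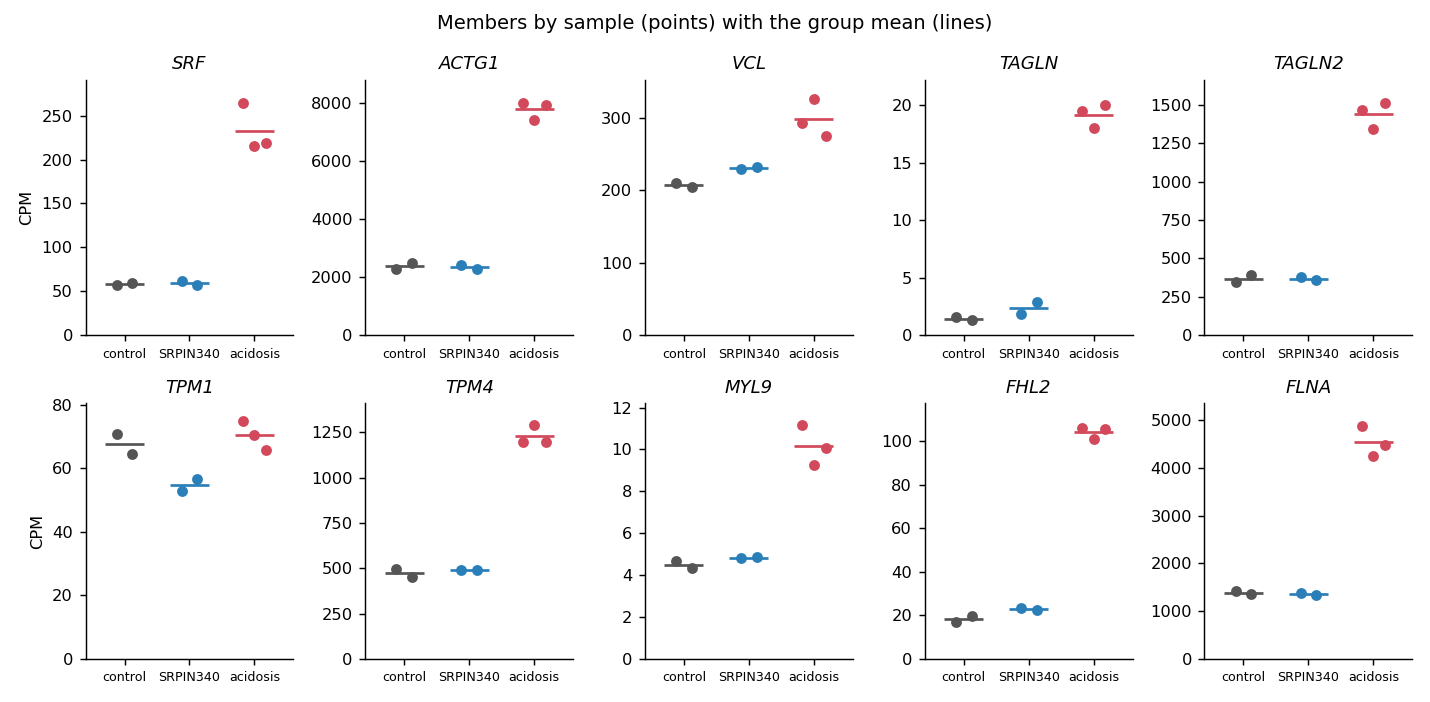
Level in CPM (vertical axis, linear from 0, TMM-scaled) of each of the 10 genes in every sample, with a point per sample and a line at the group mean. The acidosis points lie above both control points in 9 panels and overlap with them in the panel of TPM1.

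SRF itself (ENSG00000112658, chr6:43171269-43181506, plus strand, in GENCODE 44 on GRCh38) stood at 56.6 and 59.1 CPM in the control samples. With SRPIN340 it stood at 61.7 and 56.6 CPM, and in acidosis at 264, 215 and 218 CPM. The acidosis samples lay far above the other 4, which overlapped. The log2 fold change of acidosis against control was 2.01 (SE 0.11), a 4.03-fold rise with an adjusted p of 2.22e-07 in edgeR. It was larger than that of 96.3% of all genes tested.

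ACTG1 (ENSG00000184009, chr17:81509413-81523847, minus strand) encodes gamma-actin, which with beta-actin makes up the filaments of non-muscle cells. It was the most abundant of the 10, at 2280 and 2477 CPM in control, 2429 and 2278 CPM with SRPIN340 and 8014, 7416 and 7926 CPM in acidosis. Its level rose 3.27-fold in acidosis, a log2 fold change of 1.71 (SE 0.06) with an adjusted p of 2.6e-08 in edgeR. The coding sequences of ACTG1 and beta-actin (ACTB) are close to identical, so the split of shared reads between them rests on the estimate of Salmon.

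The tropomyosins TPM1 and TPM4 encode coiled-coil proteins that lie along the actin filament and set which other proteins can bind it. TPM4 (ENSG00000167460, chr19:16067021-16103002, plus strand) stood at 496 and 450 CPM in control, 491 and 489 CPM with SRPIN340 and 1196, 1288 and 1198 CPM in acidosis. It rose 2.59-fold in acidosis, a log2 fold change of 1.37 (SE 0.07) with an adjusted p of 1.22e-07 in edgeR. TPM1 (ENSG00000140416, chr15:63042620-63071915, plus strand) gave 70.9 and 64.4 CPM in control, 52.7 and 56.5 CPM with SRPIN340 and 74.7, 70.5 and 65.8 CPM in acidosis. Its acidosis and control samples overlapped. The log2 fold change was 0.06, with a 95% confidence interval from -0.15 to 0.27 and an adjusted p of 0.6 in edgeR, so a rise of the size seen in TPM4 lies outside the interval.

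TAGLN and TAGLN2 encode the transgelins, small calponin-like proteins that bind and bundle actin filaments. TAGLN, also called SM22-alpha and best known from smooth muscle, showed the largest log2 fold change of the 10, and its paralog TAGLN2 is the broadly expressed form. TAGLN (ENSG00000149591, chr11:117199370-117207464, plus strand) stood at 1.59 and 1.3 CPM in control, 1.84 and 2.92 CPM with SRPIN340 and 19.5, 18 and 20 CPM in acidosis. These levels rest on 44 and 37 counts in control and on 328, 196 and 233 counts in acidosis. The log2 fold change was 3.73 (SE 0.25; 95% confidence interval 3.18 to 4.28) with an adjusted p of 8.41e-07 in edgeR, and 99% of all genes had a lower one. TAGLN overlaps PCSK7 on the opposite strand, whether reads were assigned by strand is not given in the sources used here, and PCSK7 itself stood at 49 and 57.7 CPM in control and 38.2, 46.7 and 46.3 CPM in acidosis. TAGLN2 (ENSG00000158710, chr1:159918107-159925507, minus strand) stood at 345 and 389 CPM in control, 378 and 358 CPM with SRPIN340 and 1468, 1344 and 1513 CPM in acidosis. It rose 3.92-fold, a log2 fold change of 1.97 (SE 0.08) with an adjusted p of 4.35e-08 in edgeR.

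FLNA (ENSG00000196924, chrX:154348524-154374634, minus strand) encodes filamin A, a long dimeric protein that cross-links actin filaments into networks and ties them to integrins. It stood at 1417 and 1352 CPM in control, 1391 and 1334 CPM with SRPIN340 and 4877, 4265 and 4484 CPM in acidosis. The rise was 3.28-fold, a log2 fold change of 1.71 (SE 0.07) with an adjusted p of 3.94e-08 in edgeR. VCL (ENSG00000035403, chr10:73995193-74121363, plus strand) encodes vinculin, which joins talin and alpha-catenin to actin at adhesions. It stood at 209 and 204 CPM in control, 229 and 232 CPM with SRPIN340 and 292, 326 and 275 CPM in acidosis. All acidosis samples lay above all others, and the rise was 1.44-fold, a log2 fold change of 0.53 (SE 0.08) with an adjusted p of 0.000214 in edgeR. With libraries scaled by their totals only, the value for VCL was -0.05 with an adjusted p of 0.632.

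MYL9 (ENSG00000101335, chr20:36541497-36551447, plus strand) encodes a regulatory light chain of myosin II, whose phosphorylation switches on contraction. It was a low gene, at 4.68 and 4.32 CPM in control, 4.79 and 4.86 CPM with SRPIN340 and 11.2, 9.27 and 10.1 CPM in acidosis, from 101 to 188 counts per library. It rose 2.26-fold, with a log2 fold change of 1.18 (SE 0.18) and an adjusted p of 0.000301 in edgeR. The 95% confidence interval of 0.77 to 1.59 reached below the fold limit.

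FHL2 (ENSG00000115641, chr2:105357712-105438513, minus strand) encodes a LIM-domain protein that binds SRF and integrins and shuttles between adhesions and the nucleus. It stood at 16.9 and 19.8 CPM in control, 23.5 and 22.5 CPM with SRPIN340 and 106, 101 and 106 CPM in acidosis. The rise was 5.69-fold, a log2 fold change of 2.51 (SE 0.1) with an adjusted p of 5.15e-08 in edgeR. TAGLN and FHL2 thus led the list with intervals that overlapped no other. Below them, from SRF through TAGLN2 and FLNA to ACTG1, each interval overlapped the next, and so did those of TPM4 and MYL9.

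SRPIN340 at pH 7.4 gave 0 of the 10 genes called and 0 passing the test in edgeR, and 0 in DESeq2, as for most genes tested. Of all genes tested, 0.323% were called (0.128% higher and 0.195% lower) and 2.3% passed (0.767% as higher and 1.53% as lower). At an unadjusted p under 0.05 edgeR gave 3 members. Their log2 fold changes were -0.31 for TPM1 (95% confidence interval -0.53 to -0.08; adjusted p of 0.151 in edgeR), 0.33 for FHL2 (0.09 to 0.57; adjusted p of 0.154) and 0.72 for TAGLN (0.13 to 1.32; adjusted p of 0.197). The groups did not overlap in 5 members, higher in VCL, TAGLN, MYL9 and FHL2 and lower in TPM1, beside 54.1% of all genes (27.3% higher and 26.8% lower). For SRF the interval ran from -0.22 to 0.28, for ACTG1 from -0.16 to 0.13, for FLNA from -0.18 to 0.13, for TPM4 from -0.1 to 0.2 and for TAGLN2 from -0.18 to 0.18 on the log2 scale, so changes of the size seen in acidosis lie outside them. The interval of MYL9 was wider, from -0.34 to 0.54.

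Acidosis against SRPIN340, with the same acidosis samples, gave 8 members called higher, beside 34.6% of all genes called and 14.9% called higher. All 10 members passed as higher, beside 67.8% of all genes that passed and 32.8% that passed as higher. The log2 fold change was 3.01 (SE 0.23) for TAGLN, 2.18 for FHL2, 1.98 for SRF, 1.97 for TAGLN2, 1.74 for FLNA, 1.73 for ACTG1, 1.32 for TPM4 and 1.08 for MYL9. VCL and TPM1 passed below the fold limit, each at 0.37, with adjusted p-values of 0.00209 and 0.00613 in edgeR. Without SRPIN340 replicate 1, TPM1 no longer passed (0.31, adjusted p of 0.0723 in edgeR). The 3 comparisons share samples, so their values stand side by side and are not independent of each other.

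**Figure D2:**
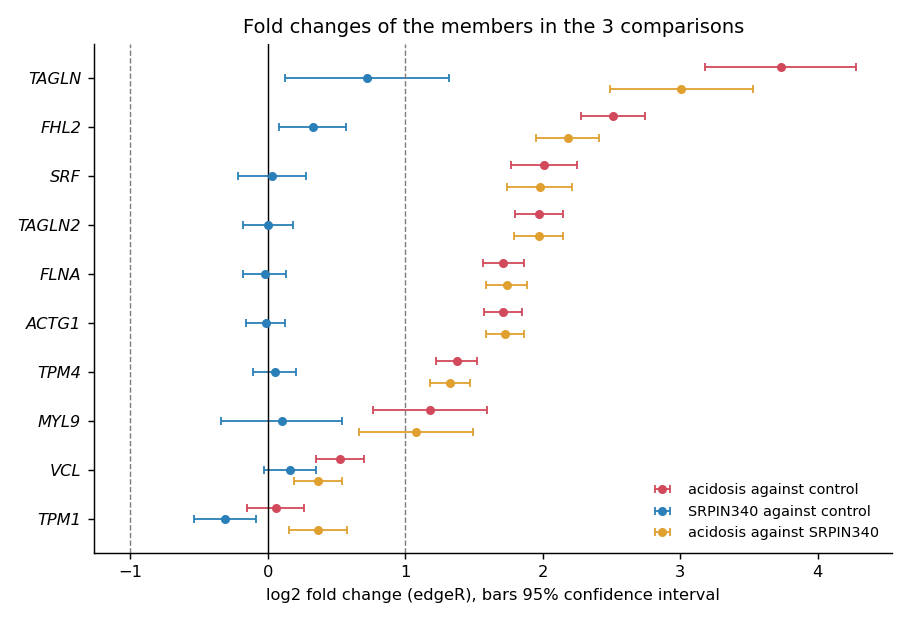
log2 fold change (horizontal axis) of the 10 genes (vertical axis, ordered by acidosis against control) in the 3 comparisons, with 95% confidence intervals from edgeR and dashed lines at the fold limit of 1 on the log2 scale. Values with SRPIN340 lie from -0.31 to 0.72, and 8 genes lie past 1 in both comparisons with acidosis.

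The size of the changes depends on how libraries are scaled. With library totals only, the median of all genes moved from -0.052 to -0.63 on the log2 scale, and the share of calls that were higher moved from 43% to 13.5%. The members' median moved from 1.71 to 1.14. TAGLN (3.15), FHL2 (1.93), SRF (1.43), TAGLN2 (1.4), FLNA (1.14) and ACTG1 (1.14) were still called higher. TPM4 (0.8) and MYL9 (0.6) passed below the fold limit, and TPM1 passed as lower at -0.52 with an adjusted p of 0.000652 in edgeR. RLE size factors and DESeq2 each gave 8 members called and 9 passed.

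**Figure D3:**
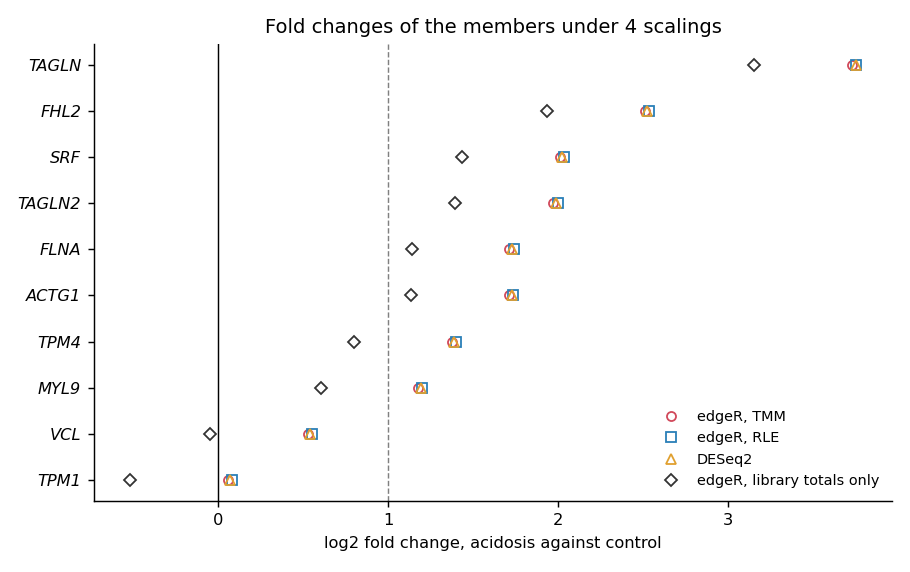
log2 fold change of acidosis against control (horizontal axis) of the 10 genes under TMM, RLE and library totals only in edgeR and in DESeq2, with a mark for each. The marks for library totals only lie left of the others for every gene, and those of VCL and TPM1 lie below 0.

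Ratios within a sample are free of the scaling between libraries. TPM1 held 12.5% and 12.5% of the summed counts of TPM1 and TPM4 in control, 9.69% and 10.4% with SRPIN340 and 5.88%, 5.19% and 5.21% in acidosis, so the 3 groups did not overlap. ACTG1 held 46.7% and 51.1% of the counts of ACTG1 and ACTB in control, 55.8% and 54.6% with SRPIN340 and 60.8%, 55% and 59% in acidosis. The control samples were the lowest, and acidosis overlapped with SRPIN340. Beta-actin was lower with SRPIN340, at 1926 and 1894 CPM against 2604 and 2367 CPM in control (log2 fold change -0.38, adjusted p of 0.0425 in edgeR).

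TAGLN held 0.457% and 0.332% of the counts of the transgelin pair in control, 0.485% and 0.811% with SRPIN340 and 1.31%, 1.32% and 1.31% in acidosis. TAGLN2 thus supplied nearly all transgelin counts in every sample. MYL9 went the other way beside MYL12A, the widely expressed regulatory light chain, with 2.71% and 2.67% of the pair's counts in control, 2.88% and 2.81% with SRPIN340 and 2.19%, 1.77% and 1.85% in acidosis. The counts of FHL2 were 1.6 and 2.01 times those of FHL3 in control and 10.7, 9.25 and 10.4 times in acidosis. Vinculin and talin, its partner at adhesions, parted as well, with a ratio of VCL to TLN1 of 0.908 and 0.915 in control and 2.35, 2.42 and 2.78 in acidosis. The fall of TLN1 was the larger part, at -0.92 on the log2 scale (adjusted p of 0.000101 in edgeR) beside 0.53 for VCL. With library totals only, TLN1 gave -1.5 and VCL -0.046.

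**Figure D4:**
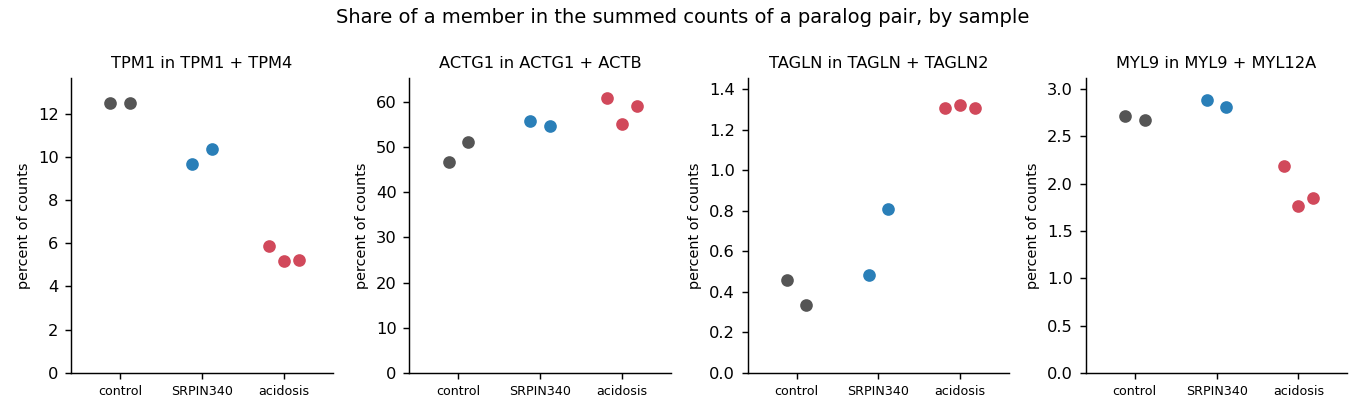
Share in percent (vertical axis, linear from 0) of a member in the summed counts of a paralog pair, with a point per sample. In acidosis TPM1 lies at 5.19% to 5.88% of the TPM1 and TPM4 counts and TAGLN at 1.31% to 1.32% of the transgelin counts, apart from the control points in both panels.

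Per kilobase of the canonical transcript, the order of the levels in control was ACTG1, TAGLN2, TPM4, FLNA, TPM1, VCL, SRF, FHL2, MYL9 and TAGLN, from 1239 CPM per kilobase for ACTG1 to 0.381 for TAGLN. The control samples of neighbouring genes did not overlap at any step of this order. In acidosis FHL2 moved from place 8 to 5, at 63.9 to 67.2 CPM per kilobase, and VCL from place 6 to 8, at 50 to 59.4. TPM1 (54 to 61.4), SRF (50.9 to 62.4) and VCL overlapped there and cannot be ranked. TAGLN, at 4.75 to 5.29, passed MYL9, at 3.33 to 4.01. TAGLN and MYL9 also have shorter annotated transcripts, which would raise their level per kilobase.

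The profile of SRF over the 7 samples was most like those of PRPS1, IRGQ, TAGLN2, DVL1 and ZNF226, by the root mean square difference of log2 CPM from the control mean searched over 10118 genes whose mean reached 10 CPM. The differences ran from 0.091 for PRPS1 to 0.0979 for ZNF226. PRPS1, which makes the ribose donor for nucleotides, stood at 91.5 and 89.9 CPM in control and 380, 380 and 363 CPM in acidosis. TAGLN2 was the only member among these 5 genes. They were chosen for this likeness, so it is a description.

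The cofactors of SRF were spread over both directions in acidosis. Of 8 listed, 6 were tested, 2 were called higher, 4 passed as higher and 1 as lower, with a median log2 fold change of 0.46. Of all genes tested, 14.4% were called higher and 19.1% lower. The called ones were the ternary complex factors ELK1 (1.25, SE 0.08, adjusted p of 8.93e-07 in edgeR) and ELK4 (1.23, SE 0.1). Of the actin-sensing pair, MRTFB was lower at -0.78 (adjusted p of 0.00041 in edgeR). MRTFA gave 0.41 (adjusted p of 0.0155 in edgeR), but -0.16 with library totals only (adjusted p of 0.276 in edgeR). With library totals only, 0 cofactors were called higher and 1 lower, beside 815 higher and 5202 lower of all 14863 genes tested. MYOCD and ABRA, muscle partners of the pathway, were too low to be tested.

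The list of other SRF targets, mostly cytoskeletal, gave 9 called higher and 1 lower of 24 tested, with a median of 0.85. With library totals only it gave 5 higher and 5 lower, with a median of 0.27. Of all 14863 genes tested, 14.4% were called higher and 19.1% lower, or 815 and 5202 genes with library totals only. The matricellular genes CCN1 and CCN2 moved most. CCN1 rose from 22.5 and 21.9 CPM to 4425, 4432 and 4702 CPM (log2 fold change 7.67), and CCN2 from 6.02 and 6.11 CPM to 1000.5, 988 and 1067 CPM (7.39). ZYX, which encodes the adhesion protein zyxin, rose by 2.25, and LMOD1, a smooth muscle actin nucleator, fell by 2.39 on the log2 scale. LMOD1 had 147 and 137 counts in control and only 11, 12 and 14 counts in acidosis. The immediate-early genes that SRF serves with the ternary complex factors gave 9 called higher of 10 tested, with a median of 4.55. FOS rose by 7.14, JUNB by 6.43 and FOSB by 6.39, and EGR2 did not pass (0.79, adjusted p of 0.134 in edgeR). The control levels were low, with 23 and 26 counts for FOS and 31 and 47 counts for FOSB.

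Paralogs of the members were called higher in 6 and lower in 0 of 14 tested, with a median of 0.93. The shares over all genes were 14.4% higher and 19.1% lower. The most changed were ACTA1 (1.86), MYL12A (1.66) and FLNC (1.56). ACTA1 lay under 1 CPM in every sample, shares sequence with ACTG1, and lost its call in DESeq2 (adjusted p of 0.0664) and with library totals only (adjusted p of 0.0737 in edgeR). TPM3 passed as lower at -0.5, and FHL3 (0.02) did not pass, beside the rise of FHL2. With library totals only FHL3 gave -0.56 (adjusted p of 0.00618 in edgeR). With library totals only, 1 paralog was called higher and 1 lower, beside 815 and 5202 of all 14863 genes tested. FLNC passed with SRPIN340 as well, at 0.37 (adjusted p of 0.0384 in edgeR).

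The same shares of all genes called in acidosis, 14.4% higher and 19.1% lower, also stand beside the counts of the lists that follow. Genes of actin monomer supply and filament turnover were called higher in 5 and lower in 1 of 20. TMSB4X, which encodes the monomer-binding thymosin beta-4, rose by 1.8, the filament-severing cofilins CFL2 and CFL1 rose by 1.56 and 1.43, and TWF2, which encodes a twinfilin, fell by 1.35 on the log2 scale. Genes of actin nucleation were called higher in 3 and lower in 2 of 26, neither above the share of all genes. WASF2 (2.1) and WASF3 (1.23), of the WAVE complex, and ACTR2 (1.03), of the Arp2/3 complex, were higher. The formins DAAM1 (-1.71) and FMNL2 (-1.03) were lower. Below the fold limit, the formins DIAPH1 (0.77) and FHOD1 (0.96) passed as higher and DIAPH2 (-0.37) as lower. In the Arp2/3 complex, ARPC1A (0.72) passed as higher and ARPC4 (-0.62) as lower. Each family thus moved in both directions. The medians were 0.43 for turnover and 0.32 for nucleation, and with library totals only they turned to -0.14 and -0.26, with 1 higher and 5 lower calls for turnover and 1 higher and 3 lower calls for nucleation.

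Focal adhesion genes were called higher in 4 and lower in 2 of 23, a share near that of all genes for higher calls and below it for lower ones, with a median of 0.21. Besides zyxin, which this list shares with the cytoskeletal targets, the integrin subunits ITGB1 (1.73) and ITGA5 (1.69) were higher, and TNS1, which encodes tensin 1 (-3.11), and KANK2 (-1.35) were lower. With library totals only, the calls were 3 higher and 6 lower and the median turned to -0.37. The genes named here as called kept their direction under RLE, library totals only and DESeq2.

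**Figure D5:**
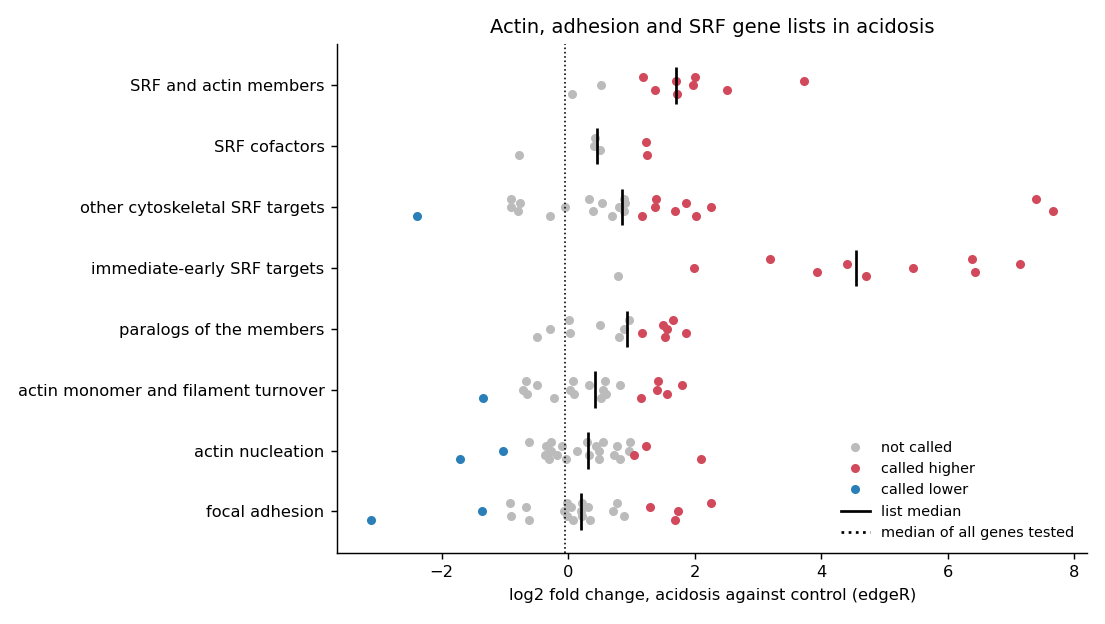
log2 fold change of acidosis against control (horizontal axis) of every tested gene of the 8 lists (vertical axis), with called genes in colour, the list median as a bar and the median of all genes as a dotted line. The immediate-early list has the highest median (4.55) and focal adhesion the lowest (0.21). The matricellular gene CCN1, which is in the list labelled other cytoskeletal SRF targets, lies furthest right (7.67).

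With SRPIN340, 0 genes of these lists were called, beside 0.323% of all genes tested. Of 24 other SRF targets, 1 passed as higher and 1 as lower. Of 14 paralogs, 1 passed as higher and 2 as lower, and of 20 turnover genes 0 and 2. In the cofactor, immediate-early, nucleation and focal adhesion lists 0 passed. Of all genes tested, 0.767% passed as higher and 1.53% as lower. A gene can stand in more than 1 list. CCN1 was higher at 0.49 (adjusted p of 0.00839 in edgeR). ACTB and the genes of profilin, PFN1 (-0.41), cofilin, CFL1 (-0.39), and the myosin essential light chain, MYL6 (-0.41), were lower, with adjusted p-values from 0.0151 to 0.0425 in edgeR. Of these 4 genes, all were called higher in acidosis, as were 14.4% of all genes tested. With library totals only they passed as higher below the fold limit. The values were 0.59 for ACTB, 0.83 for PFN1, 0.85 for CFL1 and 0.95 for MYL6.

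Markers of other cells that use SRF targets were low. The summed level of 6 smooth muscle markers was 24.8 to 32.3 CPM at pH 7.4 and 22.6 to 24.2 CPM in acidosis, most of it ACTA2, while CNN1 was called higher and LMOD1 lower. The smooth muscle cofactor MYOCD was at 0 in acidosis replicates 1 and 2 and at 0.176 to 0.344 CPM in the other samples. The sum of 7 fibroblast markers was 43 to 54.6 CPM at pH 7.4 and 82.1 to 95.6 CPM in acidosis, most of it COL1A1. COL1A1 and LUM were called higher and PDGFRA was called lower. DCN stood at 0.14 to 0.324 CPM and COL1A2 at 0 to 0.332 CPM throughout. Striated muscle markers summed to 0.216 to 0.643 CPM, and 0 of 5 were tested. The fibroblast sum thus rose with COL1A1 and LUM and not with the markers as a set, and its part in the members' rise was not tested.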

How the data were processed

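HEK-293 cells were compared in control medium of pH 7.4 (2 samples), with SRPIN340 (2 samples) and in acidosis at pH 6.6 (3 samples), after poly(A) RNA-seq. Each deposited value is an estimated count of a gene, which the authors made by trimming (Trimmomatic 0.39, Trim Galore 0.6.6), quantification with Salmon 1.5.1 against Gencode GRCh38.p13 and tximport, whose option is not given in the sources used here. They are not normalized between samples. Each sample has 1 column, whereas the methods mention several replicates of a repeat.

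Here the counts were rounded, and R 4.3.3 with edgeR 4.0.16 gave the tests (TMM, filterByExpr, quasi-likelihood test, all 7 samples in a single fit without covariates). Adjusted p-values are Benjamini-Hochberg values over 14863 genes, and a call needed a log2 fold change beyond 1 in either direction besides an adjusted p under 0.05. The standard error was taken from the test statistic. Alternatives were DESeq2 1.42.0, RLE or totals-only scaling, no filter or a mean of at least 6 CPM, only the groups compared, a replicate block and each sample left out in turn. Scripts were tested on simulated data. Of 19978 identifiers, 19977 matched GENCODE release 44, from which gene positions on GRCh38 come. Differences between replicates exceeded sampling noise in each pair.

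The members and lists were chosen with earlier results of these data known. All 10 members are named. From each other list, up to 3 genes called higher and 3 called lower in acidosis are named by size, and the 5 profiles nearest to SRF. A further list and 1 paralog are not reported here. MRTFA, MRTFB, EGR2, TPM3, FHL3, TLN1, PCSK7, COL1A2, DIAPH1, DIAPH2, FHOD1, ARPC1A, ARPC4 and the genes that passed with SRPIN340 were named after their values were seen. Python 3.11.15 and matplotlib 3.10.9 were used for promoters and figures.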

Additional observations from a re-analysis of the deposited data

How the results depend on the processing

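The members called and passed stayed within 1.5 times the reported counts under every alternative run. Leaving out each sample in turn gave 8 to 8 called and 9 to 9 passed for acidosis against control, 0 to 0 and 0 to 0 for SRPIN340 against control, and 8 to 8 and 9 to 10 for acidosis against SRPIN340, where the lone sample of a group is assumed to vary like the others. With library totals only, VCL and TPM1 turned to -0.046 and -0.52 in acidosis against control, and both to -0.25 in acidosis against SRPIN340 (adjusted p of 0.0204 and 0.0349 in edgeR). In these comparisons 6 members were then called. TPM1 against SRPIN340 was 0.31 without SRPIN340 replicate 1. The cause was not tested.

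Deviations of samples with the same repeat number correlated at -0.11 to 0.06. In a group of 2 samples the deviations mirror each other, so this check cannot decide whether repeats were paired. With the replicate block, 8 members were called and 9 passed in acidosis against control, 0 and 0 with SRPIN340, and 8 and 10 in acidosis against SRPIN340. For SRPIN340, calls over all genes fell from 48 (19 higher, 29 lower) to 5 higher and 22 lower under the block, and to between 3 and 9 higher and 8 and 23 lower with a sample left out. Levels of TAGLN rest on 37 to 77 counts per library at pH 7.4, and changes of its size there are poorly resolved. Counts do not give RNA per cell.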
